A study of Oryza sativa with 8 samples.

Results

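The comparison set leaf transcripts of dgp1 mutant rice (Oryza sativa) seedlings grown under control conditions with normal phosphate (the library dgp1_CK) against those of the wild type DJ grown the same way (DJ_CK). A gene entered when its level was at least 20 FPKM (fragments per kilobase of gene length, scaled to the size of the library) in at least 1 of the 2 libraries, and its ratio was the log2 of (dgp1_CK + 1) over (DJ_CK + 1). This left 7150 of the 40718 genes in the table. The gene nearest to the threshold inside it, Os08g0529100, had 5.42 FPKM in DJ_CK and 20.01 in dgp1_CK, and the nearest gene outside it, Os05g0582800, had 19.9988 and 15.4.

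The paired Golden2-like factors GLK1 and GLK2 switch on genes of the light-harvesting antenna, the photosystems and chlorophyll synthesis during chloroplast development. DGP1 is known in rice as a repressor of GLK activity, so a dgp1 mutant bears on how far photosynthesis genes are held down in a normal leaf. The study concerns protection of chloroplasts against reactive oxygen species formed in the light when phosphate is short, and the control pair gives the genotype difference before any phosphate stress.

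Each genotype and treatment was sequenced once, from total RNA of leaves of seedlings raised in glass tubes on solid Murashige and Skoog medium. The table also holds DJ and dgp1 after 6 days on low phosphate (10 µM KH2PO4; DJ_LP and dgp1_LP) and a glk1glk2 double mutant under both conditions. The labels do not give the allele of dgp1, whether it is 1 line, or whether plants were pooled. With 1 library a side there is no replicate check and no test, and every ratio describes this pair of libraries. DGP1 was not matched by its symbol, so the transcript of the mutated gene is not used here as a check of the labels.

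The pair held 13772220 reads on genes in DJ_CK and 15906800 in dgp1_CK, but far fewer distinct fragments. Genes with few reads clustered at 50 reads in DJ_CK and 22 in dgp1_CK, and these numbers were taken as the reads of 1 fragment. That gave an estimated 275444 fragments in DJ_CK and 723036 in dgp1_CK, with a median over the 7150 genes of 14.6 and 32.1 fragments. The 95% intervals below are exact binomial (Clopper-Pearson) intervals over these fragments and cover counting error only. A count of 3 fragments was taken as the floor, which for a gene of 1 kb was 11.5 FPKM in DJ_CK and 5.30 in dgp1_CK. Values under the floor are printed below as found but are not measured levels, and their ratios are best read by the interval. Among them are OsNADPH1, OsPSY and OsRCCR1 in DJ_CK, with an estimated 0.76, 1.24 and 2.32 fragments. In dgp1_CK they include OsGELP83, OsXTH10 and NAR2.1, with 0.82, 1.09 and 1.14. The leaf markers were high in both libraries, with Rubisco activase at 18414 and 16376 FPKM. The meristem genes OSH1 and OSH15, the mitotic genes CycB1 and CDKB2, the anther gene CYP703A3 and the seed glutelins and prolamins were at 0 in both. The 5 root markers found summed to 103 FPKM in DJ_CK and 56.5 in dgp1_CK, of which the silicon channel LSI1, also listed among aquaporins, gave 63.2 and 53.6, and LSI2 was at 0 in both.

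Of the 7150 genes, 883 were at least 2-fold higher in dgp1_CK (12.3%) and 642 were at least 2-fold lower (8.98%). The median log2 ratio was 0.07, and the quartiles were -0.44 and 0.58. The interval of the ratio excluded 1 for 560 of the higher genes (7.83% of the 7150) and 395 of the lower ones (5.52%). With at least 20 FPKM required in both libraries, a filter added after the data were seen, 5100 genes remained, of which 379 were at least 2-fold higher (7.43%) and 175 lower (3.43%). If the recovered reads of a library serve as its denominator instead, ratios of abundant genes shift by -0.27 on the log2 scale, the median over the genes becomes -0.25, and the split turns to 469 higher and 1067 lower. Medians of gene groups are therefore best read against the median of all genes under the same scaling.

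The balance between higher and lower genes moved with the level. Among the 3796 genes whose larger level was between 20 and 50 FPKM, 11.4% were at least 2-fold higher in dgp1_CK and 11.3% were at least 2-fold lower, with a median log2 ratio of -0.04. Among the 133 genes at 1000 FPKM or more, 42 were higher (31.6%), 2 were lower (1.504%), and the median was 0.68. The most abundant transcripts thus lay mostly above 0, while scarce ones lay evenly on both sides. Of those 133 genes, 43 belonged to the 7 photosynthesis groups described next, with 20 higher, 0 lower and a median of 0.96. The other 90 had 22 higher and 2 lower, with a median of 0.51.

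**Figure D1:**
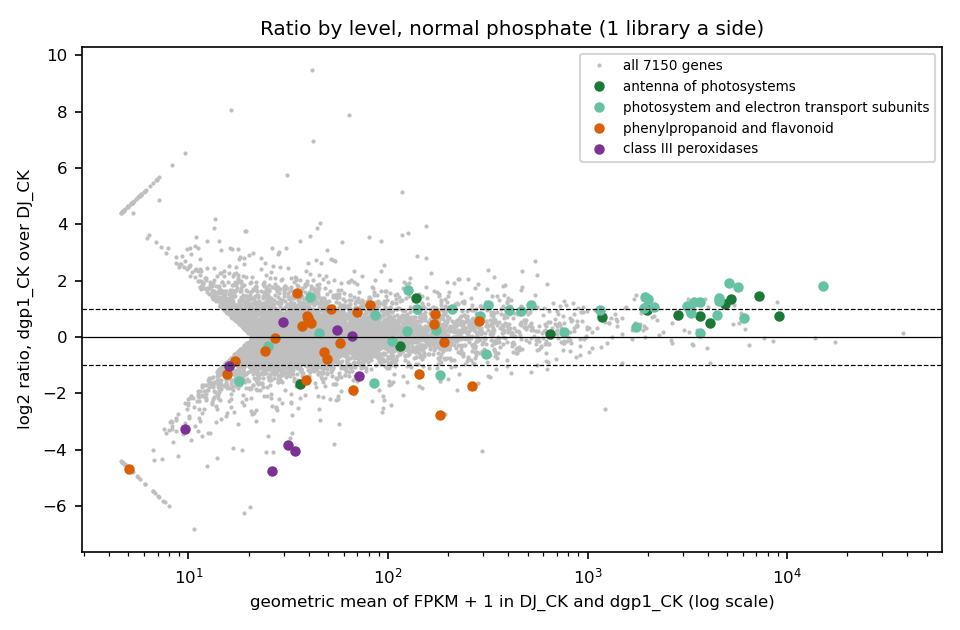
The log2 ratio of dgp1_CK over DJ_CK (vertical axis) is plotted against the geometric mean of FPKM + 1 in the pair (horizontal log axis), 1 point per gene, with dashed lines at 2-fold and 4 groups coloured. Photosystem and antenna genes lie at high levels and mostly above 0, and 6 of the 9 class III peroxidases lie below the lower dashed line.

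The transcription factors that DGP1 acts on were themselves measured. OsGLK1 (Os06g0348800, chromosome 6, 14078261 to 14082203 in the coordinates of the file, which names no build) was at 179 FPKM in DJ_CK and 273 in dgp1_CK, a log2 ratio of 0.61 (95% interval 0.26 to 0.97). GLK2 (Os01g0239000) was at 96.2 and 83.4 FPKM, a ratio of -0.20 whose interval, -0.64 to 0.24, included 0. Neither gene reached a 2-fold difference. On low phosphate the order of OsGLK1 was the other way round, with 129.6 FPKM in DJ_LP and 89.2 in dgp1_LP, while GLK2 was at 86.9 and 106.

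The 7 groups of photosynthesis genes (antenna, photosystem and electron transport subunits, Calvin cycle, photorespiration, chlorophyll synthesis, chlorophyll breakdown, and carotenoids with PsbS) held 125 genes, of which 41 were at least 2-fold higher in dgp1_CK and 7 were lower. Their median log2 ratio was 0.68, against 0.06 for the 7025 genes outside them, of which 842 were higher and 635 lower. Antenna proteins bind chlorophyll and pass light energy to the reaction centres. The 14 antenna genes had 5 higher, 1 lower and a median of 0.77, and their summed level was 30949 FPKM in DJ_CK and 60970 in dgp1_CK. CAB1R (Os09g0346500), which encodes a major chlorophyll a/b binding protein of photosystem II, was at 4351 FPKM in DJ_CK and 11994 in dgp1_CK, a log2 ratio of 1.46 (1.38 to 1.55). LHCB (Os03g0592500) was at 3269 and 8375 FPKM, a ratio of 1.36 (1.26 to 1.46). ASCAB9-A (Os11g0242800), the minor antenna protein CP26, was at 3262 and 7321 FPKM, a ratio of 1.17 (1.07 to 1.27). All 3 were higher in the mutant library by more than 2-fold.

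The other antenna genes spread more widely. Os07g0577600 (1366 and 2776 FPKM, ratio 1.02) and Os02g0764500 (84.0 and 223 FPKM, ratio 1.40) completed the 5 higher genes. CAB2R had 1414 FPKM in DJ_CK and 2782 in dgp1_CK, and CP29, cab, Os02g0197600, Os07g0562700 and Os06g0320500 had ratios between 0.50 and 0.78. The minor antenna gene CP24 was nearly level, at 629 and 672 FPKM, a ratio of 0.09 (-0.16 to 0.35). CabE, at 127 and 102 FPKM, had an interval of -0.90 to 0.28. Lhcb1.1 (Os01g0720500) was the lower gene, at 63.6 FPKM in DJ_CK and 19.4 in dgp1_CK, a ratio of -1.67 (-2.92 to -0.56). In the low-phosphate pair, Lhcb1.1 was at 6.83 FPKM in DJ_LP and 4991 in dgp1_LP.

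**Figure D2:**
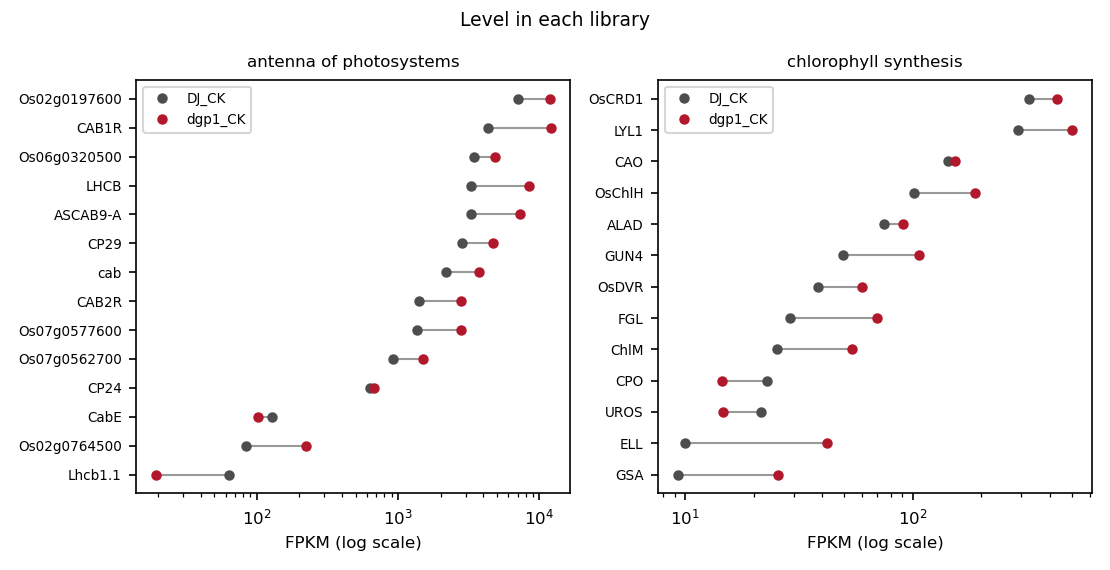
FPKM on a log axis of every antenna gene (left) and every chlorophyll synthesis gene (right) in DJ_CK (grey) and dgp1_CK (red), with a line joining the pair of values of a gene. CAB1R moves from 4351 to 11994 FPKM, CP24 stays near 629 and 672, and Lhcb1.1 lies lower in dgp1_CK.

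Subunits of the photosystems, the cytochrome b6f complex and the electron carriers gave the highest median among the protein-coding groups. Of 39 genes, 17 were at least 2-fold higher and 3 lower, with a median of 0.95 and a summed level of 54162 FPKM in DJ_CK and 126285 in dgp1_CK. PsaD (Os08g0560900), a stromal photosystem I subunit that docks ferredoxin, was at 2626 and 9989 FPKM, a log2 ratio of 1.93 (1.80 to 2.05). OsPsbR3 (Os08g0200300), a photosystem II subunit, was at 8018 and 28216 FPKM, a ratio of 1.82 (1.74 to 1.89). PSAH (Os05g0560000), the photosystem I subunit to which mobile antenna binds, was at 3082 and 10507 FPKM, a ratio of 1.77 (1.64 to 1.90). Each had a lower bound above 1.6, so counting error alone leaves them well past 2-fold.

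The 3 extrinsic proteins of the oxygen-evolving complex moved by similar amounts. PsbO was at 2201 FPKM in DJ_CK and 5268 in dgp1_CK, PsbP at 1256 and 3218, and the PsbQ-type protein Os07g0544800 at 1189 and 3185, with ratios of 1.26, 1.36 and 1.42. The electron carriers differed less, with plastocyanin (OsPC) at 4786 and 7641 FPKM, a ratio of 0.67, and ferredoxin Fd1 at 3498 and 3839, a ratio of 0.13. The leaf ferredoxin-NADP reductase genes, which make the NADPH used for carbon fixation, were lower in dgp1_CK. OsLFNR2 was at 288 and 113 FPKM, a ratio of -1.34 (-1.78 to -0.91), and OsLFNR1 at 379 and 252, a ratio of -0.59. PsbY (148 and 47.2 FPKM, ratio -1.63) and the ferredoxin Fd (29.8 and 9.43 FPKM, ratio -1.56) were the other lower genes.

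Calvin cycle genes split by enzyme. Of 22 genes, 5 were at least 2-fold higher and 3 lower, with a median of 0.41. The summed level of all 37 genes of the list was nearly the same, 39114 FPKM in DJ_CK and 42224 in dgp1_CK. The chloroplast fructose-1,6-bisphosphatase OsCFR (Os03g0267300) was at 207 and 1049 FPKM, a ratio of 2.34 (2.01 to 2.69). The ribose-5-phosphate isomerase Os07g0176900, which acts in regeneration of the CO2 acceptor, was at 259 and 1200.4 FPKM, a ratio of 2.21 (1.87 to 2.58). Rubisco and its activase, by contrast, did not reach higher levels in dgp1_CK. Activase (OsRcaII) was at 18414 FPKM in DJ_CK and 16376 in dgp1_CK. The small subunit genes were at 7784 and 7583 FPKM for RbcS3, 4539.6 and 3437 for RBCS, and 334 and 119 for RbcS5. These small subunit genes are close copies on chromosome 12, and how the deposited counts divided reads between them is not given in the sources used here. Of these 3, RbcS5 alone passed 2-fold, with a ratio of -1.48 (-1.99 to -0.998).

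Photorespiration recovers carbon from the product of Rubisco's reaction with oxygen. Of 17 genes, 2 were at least 2-fold higher and 0 lower, with a median of 0.39. OsGDCH, the carrier protein of glycine decarboxylase, was at 259 FPKM in DJ_CK and 830.0 in dgp1_CK, a ratio of 1.68 (1.27 to 2.11). The aminomethyltransferase of the same complex, Amt, was at 316 and 682 FPKM, a ratio of 1.11. The glycolate oxidase gene GLO4 had the lowest ratio, -0.52, from 327 and 228 FPKM.

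Chlorophyll synthesis genes were measured at much lower levels. All 31 genes of the list summed to 1196 FPKM in DJ_CK and 1799 in dgp1_CK. Of the 13 genes that entered the comparison, 5 were at least 2-fold higher and 0 lower, with a median of 0.79. The higher genes belong to early and late steps of the pathway. GSA, which forms 5-aminolevulinic acid, was at 9.30 and 25.6 FPKM, a ratio of 1.37 (0.16 to 3.06). ELL, the magnesium chelatase subunit ChlI, was at 9.96 and 41.9 FPKM, a ratio of 1.97 (0.57 to 4.08). GUN4, which binds the chelatase's porphyrins, was at 49.2 and 107 FPKM, a ratio of 1.10 (0.32 to 2.00).

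The later steps held the other 2 higher genes. FGL, a protochlorophyllide oxidoreductase that works in light, was at 28.9 and 70.0 FPKM, a ratio of 1.25 (0.61 to 2.00). ChlM, the methyltransferase after the chelatase, was at 25.4 and 54.3 FPKM, but its interval ran from -0.72 to 3.48. OsChlH, the large chelatase subunit, was at 102 and 189 FPKM (ratio 0.88, 0.59 to 1.202), and LYL1, a geranylgeranyl reductase that makes the phytol tail, at 289.9 and 503 (0.79, 0.52 to 1.08). OsDVR, at 38.5 and 59.7 FPKM, and OsCRD1, at 325 and 431, had ratios of 0.62 and 0.41. ALAD (75.01 and 90.6 FPKM) and CAO (142 and 153) had intervals that included 0. The porphyrin genes CPO and UROS were below 0, at 22.9 and 14.6 FPKM and at 21.5 and 14.7, and their intervals also included 0.

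Breakdown genes stood on the same side in this pair. Of 8 genes, 3 were at least 2-fold higher in dgp1_CK and 0 lower, with a median of 0.64. OsPAO, the oxygenase that opens the ring of pheophorbide a, was at 25.3 and 69.9 FPKM, a ratio of 1.43 (0.63 to 2.40). OsRCCR1, which acts on the product, was at 7.29 and 36.8 FPKM, a ratio of 2.19 (0.45 to 5.15). The TIC55 gene Os02g0792800 was at 68.9 and 184 FPKM, a ratio of 1.41. NYC1, the chlorophyll b reductase, was at 79.2 and 63.6 FPKM, with an interval of -0.87 to 0.25. Among 12 carotenoid, xanthophyll cycle and PsbS genes, 4 were higher and 0 lower, with a median of 0.40. PSBS1, the photosystem II protein that triggers heat dissipation of excess light, was at 2336 FPKM in DJ_CK and 4888 in dgp1_CK, a ratio of 1.06 (0.94 to 1.19). The carotenoid enzymes PDS1 (46.9 and 99.3 FPKM) and OsPSY (3.21 and 22.9 FPKM, interval 0.39 to 7.34) were among the higher genes.

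Antioxidant enzymes were mixed, and their counts stand beside 12.3% higher and 8.98% lower over all 7150 genes. Of 21 genes of the ascorbate cycle, catalases and superoxide dismutases, 4 were at least 2-fold higher and 1 lower, with a median of 0.25. MDHAR, which regenerates ascorbate, was at 107 and 299.9 FPKM, a ratio of 1.47 (1.03 to 1.96), and the peroxisomal-type ascorbate peroxidase OsAPx4 at 216 and 495, a ratio of 1.19 (0.82 to 1.59). The catalase gene CATA1 was at 403 and 259.8 FPKM, a ratio of -0.63. SodB, the lower gene, was at 41.6 and 19.9 FPKM, and its interval, -2.19 to 0.07, included 0. Of 17 thioredoxin and peroxiredoxin genes, 2 were higher and 0 lower, with a median of 0.20. OsPrx (Os06g0196300) was at 134 and 397 FPKM, and the thioredoxin OsTRX (Os12g0188700) at 828 and 458, a ratio of -0.85.

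**Figure D3:**
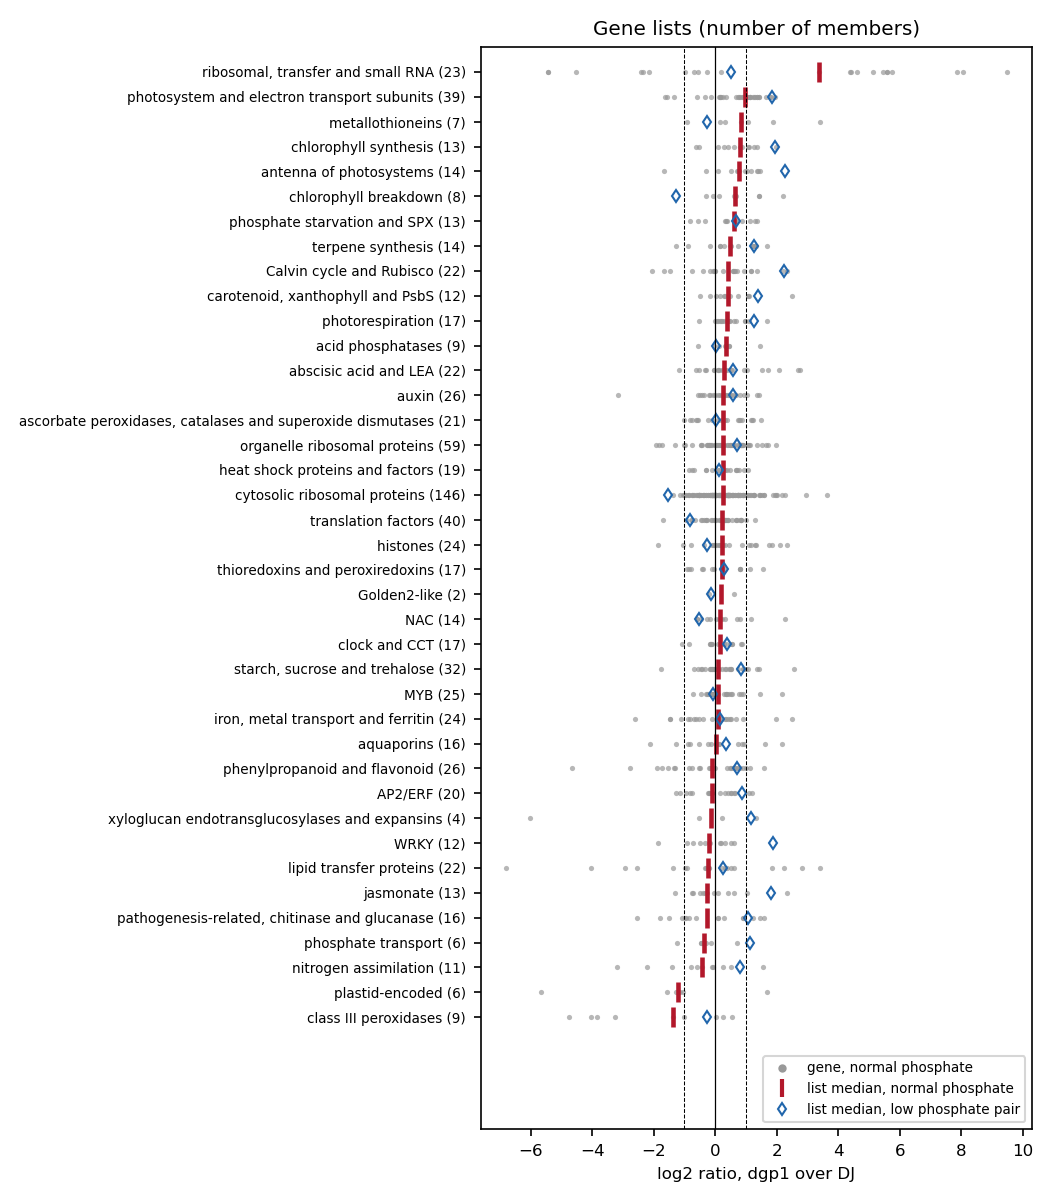
Each row is a gene group with its number of genes, each grey point the log2 ratio of dgp1_CK over DJ_CK of 1 gene, each red bar the group's median in that pair, and each open diamond the median of dgp1_LP over DJ_LP. Photosystem subunits have the highest median of the protein-coding groups (0.95), class III peroxidases have the lowest median of all (-1.36), and the diamonds of cytosolic ribosomal proteins (-1.55) and chlorophyll breakdown (-1.27) lie on the other side of 0 from the bars.

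Genes outside photosynthesis were led by a small set with wide differences. RBBI2-2 (Os01g0123900), a Bowman-Birk trypsin inhibitor, was at 38.7 FPKM in DJ_CK and 604 in dgp1_CK, a log2 ratio of 3.93 (3.002 to 5.14). PAP3 (Os10g0575700), a plastid lipid-associated protein of the fibrillin family, was at 10.2 and 184 FPKM, a ratio of 4.04 (2.59 to 6.47) that rests on an estimated 3 fragments in DJ_CK. GRP (Os10g0450900), a glycine-rich cell wall protein, was at 212 and 1381 FPKM, a ratio of 2.70 (2.32 to 3.11). These 3 had the highest lower bounds of the protein-coding genes with at least 50 FPKM and a described product. The chloroplast protease OsFtsH2 (Os06g0669400), of the family that clears damaged photosystem II protein, was at 139 and 721 FPKM, a ratio of 2.36 (2.06 to 2.70). EGY3, described as a probable chloroplast zinc metalloprotease, was at 17.4 and 114 FPKM, a ratio of 2.64 (1.74 to 3.87). OsLOX1 (Os02g0194700), a chloroplast lipoxygenase, was at 40.1 and 207 FPKM, a ratio of 2.34 (1.86 to 2.93). Others of the 15 outermost higher genes were OsNADPH1, at 2.17 and 56.6 FPKM, the cortical cell-delineating protein gene Os03g0718800, at 17.3 and 187, and the glycine-rich gene Os06g0316300, at 50.4 and 379.7.

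At the other end, several genes were at or near 0 in the dgp1_CK library. OsGELP83 (Os06g0351500), a GDSL esterase/lipase, was at 164 FPKM in DJ_CK and 1.198 in dgp1_CK, with an upper bound of -4.35 on the log2 scale. OsXTH10 (Os06g0697000), a xyloglucan endotransglucosylase that remodels cell walls, was at 163 and 1.53 FPKM, with an upper bound of -4.28. The prolyl endopeptidase gene OsPOP9 was at 59.5 and 1.51 FPKM, and the subtilisin-like protease gene OsSub61 at 108 and 5.43. For genes at 0 in dgp1_CK only the upper bound of the interval is given, which counts the error of both libraries. OsGELP77, another GDSL esterase/lipase, had 55.0 FPKM in DJ_CK, with an upper bound of -3.46 on the log2 scale. OsRNS5, a T2 ribonuclease, had 63.2 FPKM in DJ_CK and an upper bound of -3.37. OsSAUR57, an auxin-responsive gene, had 56.9 FPKM in DJ_CK and an upper bound of -3.08. In all, 31 of the 7150 genes were at 0 in dgp1_CK and 49 were at 0 in DJ_CK.

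**Figure D4:**
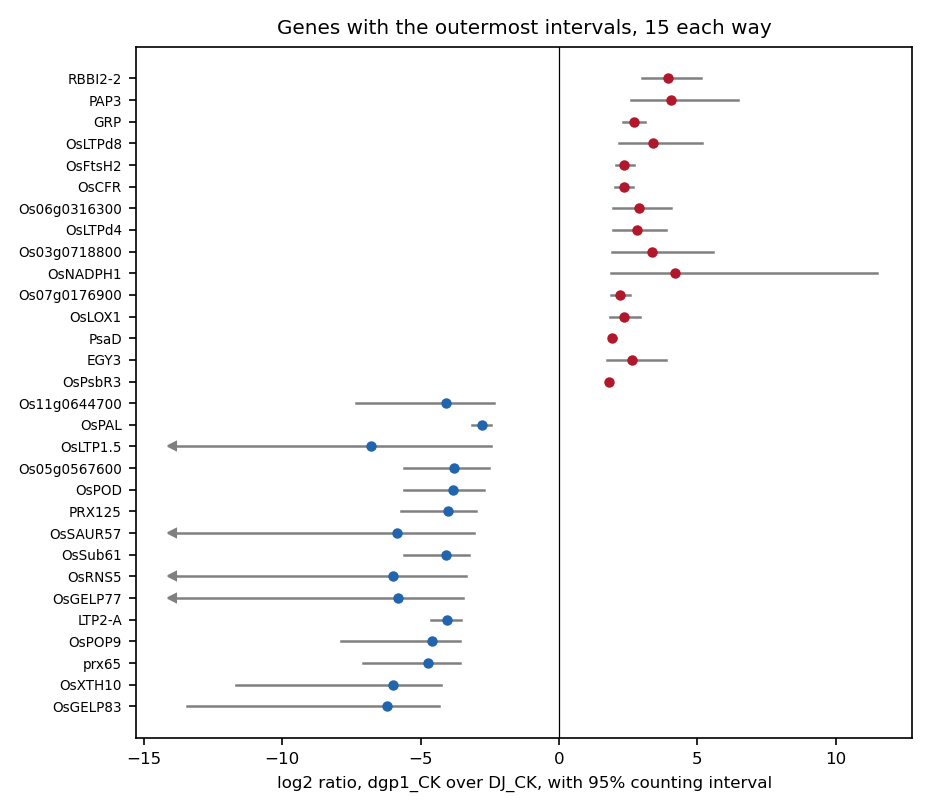
The log2 ratio of dgp1_CK over DJ_CK (points, red above 0 and blue below) with its 95% counting interval (lines) for the 15 named genes with the highest lower bounds and the 15 with the lowest upper bounds. Intervals of genes with few fragments are wide, and an arrow at the left edge marks a gene at 0 in dgp1_CK, whose interval has no lower limit.

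Class III peroxidases, which act in the cell wall on lignin precursors and hydrogen peroxide, had the lowest median. Of 9 genes, 0 were higher and 6 were at least 2-fold lower, 5 of them with an interval that excluded 1, and the median was -1.36. Over all 7150 genes 8.98% were lower, and 5.52% were lower with such an interval. prx65 (Os05g0134400) was at 135 FPKM in DJ_CK and 4.06 in dgp1_CK, a ratio of -4.74 (-7.08 to -3.56). PRX125 was at 137 and 7.43 FPKM and OsPOD at 118 and 7.36, with ratios of -4.03 and -3.83. The other side of the group held prx29, at 64.1 and 65.6 FPKM. Among the genes of the group with at least 20 FPKM in both libraries the median was 0.14.

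Phenylpropanoid and flavonoid genes, which feed lignin and flavonoid synthesis, gave 2 higher and 7 lower of 26, with a median of -0.10 that became 0.38 among genes with at least 20 FPKM in both libraries. The shares over all 7150 genes were 12.3% higher and 8.98% lower. Of the 7 lower genes, 3 encode phenylalanine ammonia-lyase, the enzyme at the entry of the pathway. OsPAL (Os02g0626100) was at 479 and 68.9 FPKM, a ratio of -2.78 (-3.14 to -2.46). A neighbouring OsPAL gene (Os02g0626400) was at 127 and 33.6 FPKM, a ratio of -1.89 (-2.45 to -1.40). OsPAL03 was at 225 and 89.2 FPKM, a ratio of -1.33 (-1.70 to -0.97). Reads may be shared between such close copies. The gene named gh1 was at 483 and 144 FPKM, a ratio of -1.74, and a chalcone synthase gene (CHS*) at 64.8 and 21.8, a ratio of -1.53. The laccase gene OsLAC24 was at 24.4 FPKM in DJ_CK and at 0 in dgp1_CK, with an upper bound of -2.77. The dirigent protein gene Os11g0644700, which acts in lignan synthesis, was at 99.9 and 4.92 FPKM.

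Lipid transfer proteins, small secreted proteins of the epidermis and cuticle, moved both ways. Of 22 genes, 4 were higher and 5 lower, all 9 with intervals that excluded 1, and the median was -0.22. Over all 7150 genes, 7.83% were at least 2-fold higher and 5.52% lower with such an interval. LTP2-A (Os11g0115350) was at 1200.3 FPKM in DJ_CK and 72.0 in dgp1_CK, a ratio of -4.04 (-4.62 to -3.54), and OsLTP1.17 (Os12g0115000) at 2958 and 507, a ratio of -2.54 (-2.89 to -2.21). These lie among near-identical copies on chromosomes 11 and 12, so the split of reads between them is uncertain. OsLTP1.5 had 111 FPKM in DJ_CK and was at 0 in dgp1_CK, with an upper bound of -2.47. On the higher side were OsLTPd8, at 27.3 and 300.2 FPKM, OsLTPd4, at 57.6 and 411, and OsLTPd5, at 203 and 734. Of the 4 xyloglucan endotransglucosylase and expansin genes, 1 was higher and 1 was lower, with a median of -0.15. In bulk leaf RNA, fewer cells of a type and less RNA per cell cannot be told apart.

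Nutrient genes were few at this level, and their counts stand beside 12.3% higher and 8.98% lower over all 7150 genes. Nitrogen assimilation gave 1 higher and 3 lower of 11 genes, with a median of -0.42. With genes from 5 FPKM upwards included, that median was 0.25. NAR2.1, the partner protein of high-affinity nitrate transport, was at 27.2 and 2.103 FPKM, NRT2.4 at 33.9 and 6.58, and nitrate reductase OsNR1 at 49.2 and 17.9, with a ratio of -1.41 (-2.16 to -0.76). NAR2.1 was also among the root markers. The root markers RCc3 (6.55 and 0 FPKM) and SHR5 (6.08 and 0.787 FPKM) were under the 20 FPKM entry level in both libraries, so no direction is read from them, and LSI1 had an interval of -0.999 to 0.56. What these markers contribute to the nitrogen, peroxidase and phenylpropanoid values was not tested. The plastid glutamine synthetase OsGLN2 was at 1016 and 1465 FPKM, a ratio of 0.53, and the nitrate transporter NRT1.1B at 7.38 and 23.7.

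Phosphate starvation and SPX genes gave 3 higher and 0 lower of 13, with a median of 0.62. For this and the next groups, the shares over all 7150 genes were 12.3% higher and 8.98% lower. OsPHR4, a member of the phosphate starvation response factors, was at 25.2 and 66.7 FPKM, a ratio of 1.37 (0.51 to 2.42). OsSPX1 (10.5 and 24.1 FPKM) and OsSPX2 (11.8 and 30.3 FPKM), which sense phosphate status, had intervals that included 0. Phosphate transport gave 0 higher and 1 lower of 6 genes, with a median of -0.38, and 1 gene is shared between these groups. The plastid anion transporter gene Os09g0556400 was the lower gene, at 55.0 and 22.7 FPKM, and the plastid phosphate transporter OsPT14 was at 163 and 133. Acid phosphatases gave 1 higher and 0 lower of 9, with a median of 0.34. Iron and metal genes gave 2 higher and 4 lower of 24, with a median of 0.08. The vacuolar iron transporter OsVIT2 was at 67.6 FPKM in DJ_CK and 10.4 in dgp1_CK, a ratio of -2.59 (-4.15 to -1.44), and the iron store ferritin FER2 at 89.4 and 31.98, a ratio of -1.45 (-2.38 to -0.60). Of 7 metallothioneins, 3 were higher and 0 lower, with a median of 0.85. OsMT3a, the gene with the highest level in DJ_CK, was at 36034 and 40083 FPKM, and OsMT2a at 1355 and 2822.

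Hormone, defence, terpene and sugar groups had medians between -0.28 and 0.49. Over all 7150 genes 12.3% were at least 2-fold higher and 8.98% lower. The higher counts of the auxin, starch and aquaporin groups lay near that share. Jasmonate synthesis and signalling gave 2 higher and 1 lower of 13, with a median of -0.25, and pathogenesis-related, chitinase and glucanase genes 3 higher and 4 lower of 16, with a median of -0.28 that became 0.074 with 20 FPKM required in both libraries. OsLOX7, a 9-lipoxygenase-type gene, was at 46.0 and 17.8 FPKM, and the glucanase gene OsPR2 at 234 and 109.6. Auxin genes gave 3 higher and 1 lower of 26 (median 0.26), and abscisic acid and LEA genes 6 higher and 1 lower of 22 (median 0.28). OsLEA9 was at 1084 and 2199 FPKM and the abscisic acid hydroxylase gene OsABA8OX2 at 2.80 and 23.5. Terpene synthesis gave 5 higher and 1 lower of 14, with a median of 0.49. The sesquiterpene synthase OsTPS29 was at 173 and 562 FPKM, a ratio of 1.70 (1.39 to 2.03), and OsDXR and OsIspF, of the plastid isoprenoid route that also feeds carotenoids and the chlorophyll tail, were at 119 and 281 and at 145 and 336. Starch, sucrose and trehalose genes gave 4 higher and 1 lower of 32 (median 0.10), with the starch synthesis gene OsAGPS2a at 87.5 and 25.2 FPKM. Aquaporins gave 2 higher and 2 lower of 16, with a median of 0.01.

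Counts in transcription factor families stand beside 12.3% higher and 8.98% lower over all 7150 genes, or 21.3% either way. WRKY genes gave 0 higher and 1 lower of 12 (median -0.19), the lower one being WRKY74, at 40.3 and 10.5 FPKM. NAC genes gave 2 and 0 of 14 (median 0.14), AP2/ERF genes 2 and 2 of 20 (median -0.10), MYB genes 2 and 0 of 25 (median 0.09), and clock and CCT genes 0 and 1 of 17 (median 0.14). These medians are small, and those of WRKY (0.17) and MYB genes (-0.090) changed side at a minimum of 5 FPKM, and that of AP2/ERF genes (0.23) at a minimum of 100. ONAC015 was at 6.90 and 36.9 FPKM, OsMYB48 at 6.85 and 34.6, and the lower clock gene, the REVEILLE-type Os06g0105800, at 68.4 and 31.7.

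Genes of protein synthesis and chromatin had medians between 0.22 and 0.25, beside 0.07 for all 7150 genes. Over all genes 12.3% were at least 2-fold higher and 8.98% lower. Of 146 cytosolic ribosomal protein genes, 23 were at least 2-fold higher and 4 lower, with a median of 0.24. Organelle ribosomal proteins gave 9 higher and 5 lower of 59 (median 0.25), with the plastid protein gene RPL27 at 105 FPKM in DJ_CK and 307 in dgp1_CK. Translation factors gave 1 higher and 1 lower of 40 (median 0.23), the lower one being the chloroplast elongation factor G gene Os04g0538100, at 96.8 and 29.5 FPKM. Heat shock genes gave 1 higher and 0 lower of 19 (median 0.24). Histones gave 8 higher and 2 lower of 24, with a median of 0.22. All 8 higher histones of the 24 had an interval that excluded 1. Over all 7150 genes, 7.83% were at least 2-fold higher with such an interval, 560 of the 883 higher genes. H2B.5 was at 29.2 and 151 FPKM and the linker histone H1 at 561 and 274, while the proliferation marker PCNA was at 13.4 and 13.8 FPKM. Histone genes of a class are close copies, so single values are uncertain. The side of 0 of such small medians rests on the scaling. With the recovered reads as denominator, 17 of the 28 groups with a median above 0 had one below 0, the ribosomal protein, translation factor, heat shock and histone groups included, and 0 of the 11 below 0 changed side.

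Transcripts made in the plastid were measured for 6 genes only, 1 higher and 5 lower, with a median of -1.21. rpl32 was at 930.0 FPKM in DJ_CK and 423 in dgp1_CK, psaC, which encodes the iron-sulphur subunit of photosystem I, at 643 and 265, and rpoA, of the plastid RNA polymerase, at 313 and 105. The intervals of these 3 excluded 0, and those of the other 3 included it. The group of 23 ribosomal, transfer and small RNA rows gave 12 higher and 6 lower, with ratios from -5.45 to 9.48. A ribosomal RNA row on chromosome 9 (11554 to 13364) was at 0.552 and 1106 FPKM. Non-coding rows took 0.0392% of the reads in DJ_CK and 0.531% in dgp1_CK, and the part of RNA selection in this group and in the plastid transcripts was not tested.

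The low-phosphate pair, dgp1_LP over DJ_LP, shares no library with the control pair and sets the same genotypes against each other after phosphate stress. Its libraries held more fragments, an estimated 2070751 in DJ_LP and at most 15857155 in dgp1_LP, where no clustering of read numbers was found. Of 7512 genes measured there, 1804 were at least 2-fold higher in dgp1_LP (24%) and 991 lower (13.2%). A value in both pairs existed for 5593 genes, of which 1125 were higher (20.1%) and 589 lower (10.5%) on low phosphate. Of the 636 that were higher in the control pair, 187 were also higher on low phosphate (29.4%) and 95 were lower (14.9%). Of the 364 that were lower in the control pair, 40 were also lower (11.0%) and 116 were higher (31.9%). Across the 5593 genes, which are not independent replicates, Pearson's r between the pairs was 0.0025 and Spearman's rho 0.085.

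Photosynthesis genes were mostly higher in the mutant on low phosphate. Of their 115 genes with a value in both pairs, 81 were higher and 5 lower on low phosphate, and of the 39 that were higher in the control pair 29 were higher there too and 3 were lower. Of the 5 that were lower in the control pair, 2 were higher on low phosphate and 1 was lower. Within these 115 genes Pearson's r between the pairs was 0.019 and Spearman's rho 0.16, so the sizes of the ratios in the 2 pairs were hardly related. The antenna group had 12 of 13 genes higher in dgp1_LP with a median of 2.26, and photosystem subunits 25 of 36 with a median of 1.85. Chlorophyll synthesis had 10 of 12 higher with a median of 1.95. The group medians in the control pair, 0.77, 0.95 and 0.79, lay on the same side and were smaller. Calvin cycle genes had 16 of 19 higher with a median of 2.24, against 0.41 in the control pair, and RbcS3 was at 2869 FPKM in DJ_LP and 8164 in dgp1_LP. PsaD had 746 FPKM in DJ_LP and 3869 in dgp1_LP, and CAB1R 4342 and 12930.0.

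**Figure D5:**
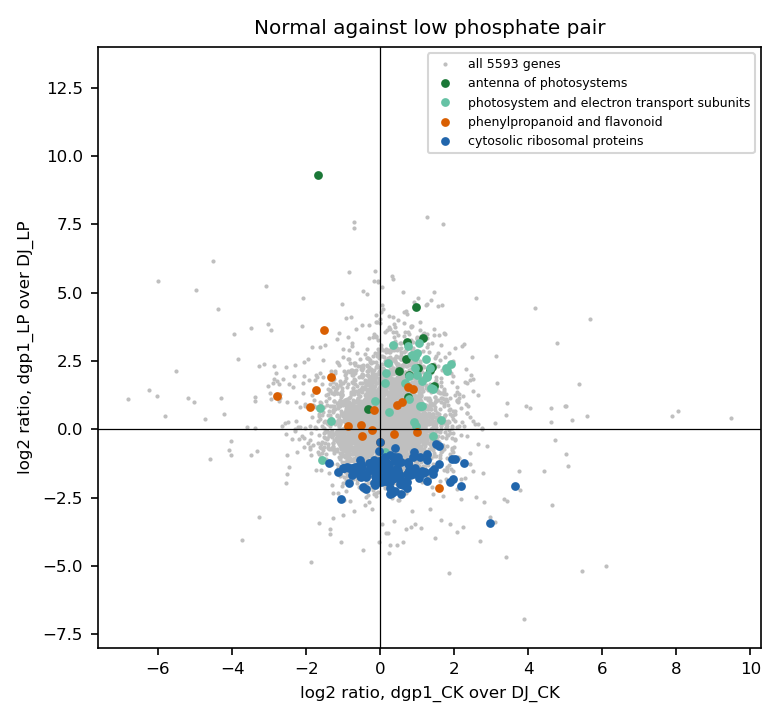
The log2 ratio of dgp1_LP over DJ_LP (vertical axis) against that of dgp1_CK over DJ_CK (horizontal axis) for the 5593 genes measured in both pairs, with 4 groups coloured. Antenna and photosystem genes lie mostly in the upper right, phenylpropanoid genes below -1 on the horizontal axis lie above 0 on the vertical one, and cytosolic ribosomal proteins lie on both sides of 0 horizontally and almost all below 0 vertically.

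The genes of the glk1glk2 double mutant bear on the same pathway but are set against the same DJ_CK library, so no overlap or correlation with them is given. CAB1R was at 2662 FPKM in glk1glk2_CK, beside 4351 in DJ_CK and 11994 in dgp1_CK. PsaD was at 1096, beside 2626 and 9989. The glk1glk2_CK library held an estimated 77759 fragments, with a floor of 30.8 FPKM for a gene of 1 kb, so the scarcer chlorophyll synthesis genes are not set beside it. Rubisco activase was at 1489.7 FPKM, beside 18414 and 16376.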

How the data were processed

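Leaf RNA of 6 libraries was given in 1 table, from a directional library kit per the labels' protocols. The authors deposited 1 value per gene and library; the header names no unit, and they are read here as FPKM computed by the authors, because value times gene length, divided by the smallest such product of the library, was whole within 0.01 for 100% of values in DJ_CK and dgp1_CK. These whole numbers were read as reads, and not given to a count test because each group has 1 library. The aligner, the counting, its use of strand and the genome build are not given in the sources used here, so reads of overlapping genes on opposite strands may be mixed. Gene names came from the second deposited table of the series by gene ID (6980 of the 7150 genes matched).

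The reads of 1 fragment were taken as the highest point between 5 and 600 reads of the number of genes by read number, smoothed over 7 bins. Ratios used a pseudocount of 1. Intervals were 95% exact conditional binomial intervals of the fragment ratio without a pseudocount. A printed ratio and its interval are therefore not of the same quantity, and they differ most at low levels. The simulated data used to check the intervals gave every fragment the same number of reads, so uneven copying was not tested. Reads were copied many times, so intervals cover counting error only. Python 3.11.15, pandas 2.3.3, numpy 2.4.6, scipy 1.17.1 and matplotlib 3.10.9 were used.

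The members and the 39 gene lists were chosen with earlier results of these data known, and the search patterns of the lists were tightened after their members and values had been seen, so no list is independent evidence of its direction. Named genes were OsGLK1 and GLK2, the 15 highest lower bounds and 15 lowest upper bounds among described genes with at least 50 FPKM, every antenna and chlorophyll synthesis gene, and the 3 outermost genes each way of each list. PsbO, PsbP, Os07g0544800, OsPC, Fd1, Fd, RbcS3, OsRcaII, OsSPX1, OsSPX2, OsPAL03, CHS*, gh1 and the threshold and plastid genes were named after their values were seen. Of the marker genes, HKT2;1, OSIPA, OsLTP6 and GLB1 were not matched by symbol. Alternatives covered the pseudocount, the scaling, the minimum level, the non-coding rows, the interval and the reads of 1 fragment. Promoter motifs were not analysed here.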

Additional observations from a re-analysis of the deposited data

Results flagged for a closer look

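Several groups and genes lay on opposite sides of 0 in the control pair (dgp1_CK over DJ_CK) and the low-phosphate pair (dgp1_LP over DJ_LP), at least 2-fold in size in 1 of the pairs for a group and in both for a gene. Groups with fewer than 5 genes measured on low phosphate were left aside, among them xyloglucan endotransglucosylases and expansins, with 4 genes and medians of -0.15 and 1.15. This rule was chosen after the values had been seen. With 1 library a side, none of these differences was tested.

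Genes of chlorophyll breakdown had a median log2 ratio of 0.64 in the control pair and -1.27 in the low-phosphate pair. Cytosolic ribosomal proteins had medians of 0.24 and -1.55, and 136 of their 145 genes measured on low phosphate were at least 2-fold lower there. Over all 7512 genes measured on low phosphate, 13.2% were lower. The summed level of the ribosomal list was 13547 FPKM in DJ_CK, 16191 in dgp1_CK, 33762 in DJ_LP and 11520 in dgp1_LP, so DJ_LP stood apart as the highest. The control median of the ribosomal proteins was itself below 0 when recovered reads were the denominator. Phosphate transport had medians of -0.38 and 1.13, jasmonate genes -0.25 and 1.81, pathogenesis-related, chitinase and glucanase genes -0.28 and 1.07, and WRKY genes -0.19 and 1.88. The control median of WRKY genes was 0.17 at a minimum of 5 FPKM, and that of the pathogenesis-related group was 0.075 at a minimum of 100 and 0.074 with 20 FPKM in both libraries.

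Of the 30 genes with the outermost intervals, 3 were higher in dgp1 under control conditions and lower on low phosphate. The log2 ratios were 2.70 and -4.11 for GRP, 2.81 and -2.66 for OsLTPd4, and 3.36 and -2.56 for Os03g0718800. A further 7 genes were lower under control conditions and higher on low phosphate. The cell wall gene OsXTH10 had ratios of -6.02 and 1.22, the esterase/lipase gene OsGELP83 -6.23 and 1.45, and the peroxidase gene OsPOD -3.83 and 2.56. OsPAL (Os02g0626100) had -2.78 and 1.21. The dirigent gene Os11g0644700 had -4.09 and 2.74, with an estimated 2.14 fragments in dgp1_CK. It was at 0 FPKM in DJ_LP and 5.69 in dgp1_LP, both under the 20 FPKM entry level. Its ratio of 2.74 therefore rests on the added pseudocount. OsRNS5 and OsLTP1.5 were at 0 in dgp1_CK, where a ratio rests on the added pseudocount, and had -6.005 and 5.43 and -6.81 and 1.12.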

How the results depend on the processing

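No paired analysis was possible because each group has 1 library. For the same reason no library could be left out. Counts of genes at least 2-fold higher and lower, 883 and 642, kept within 1.5 times of these values with pseudocounts of 0.1 and 5, with median-of-ratios scaling and without non-coding rows. Taking the recovered reads of a library as its denominator gave 469 and 1067, and medians of 0.50 for antenna genes, 0.072 for photorespiration and -0.54 for ribosomal, transfer and small RNA (3.38 as deposited). A minimum of 5 FPKM gave 2342 and 2053, and one of 100 gave 250 and 81. Requiring the interval to exclude 1 gave 560 and 395. At least 20 FPKM in both libraries gave 379 and 175, with medians of 0.14 for class III peroxidases and -0.56 for ribosomal, transfer and small RNA. The minimum of 100 moved the medians of acid phosphatases to 1.46, class III peroxidases to -3.93, xyloglucan endotransglucosylases and expansins to -2.90, Golden2-like factors to 0.61 and iron and metal genes to -0.035; fewer genes enter it. Starch, sucrose and trehalose genes had -0.0082 with 20 FPKM in both libraries. Genes at least 2-fold the same way in both pairs numbered 227 and the opposite way 211. These became 353 and 366 at a minimum of 5, 100 and 50 at 100, and 136 and 78 with 20 FPKM in both libraries. The cause of the shifts with scaling was not tested. With a further peak of DJ_CK at 26 reads taken as 1 fragment, 2268 intervals excluded 1, against 1576. List medians were judged against the median width of their genes' intervals. Depth limits precision at low levels: of genes at 20 to 50 FPKM, 10.9% had an interval that excluded 1, against 92.5% at 1000 or more.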
